A study of Homo sapiens with 4 samples.

Results

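Neurofilament and neuronal cytoskeleton genes were examined in arrays of the prostate cancer cell line PC3 with and without PDEF, an ETS transcription factor encoded by SPDEF. The set holds 10 genes picked by name with earlier results of these arrays in view. They are the neurofilament genes NEFL, NEFM and NEFH, the related INA, the tubulin genes TUBB2B and TUBB3, and the microtubule regulators MAP1B, MAP2, STMN2 and DCX. Of these, 9 had a probe set annotated to them alone, among 18417 genes measured in that way. The probe set of TUBB3 is also annotated to MC1R, so TUBB3 has no value here.

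PC3 is a line derived from a bone metastasis of prostate cancer. The control cells carry the empty vector pBABE and are labelled PC3-SCR, which the paper calls VC-PC3. The other cells are described as over-expressing PDEF and are labelled PC3-PDEF. The methods describe stable transfection and do not say whether a line is 1 clone or a pool. Each group has 2 arrays of total RNA, and the labels do not say whether these were separate cultures, so the p-values rest on a spread that may be technical.

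Neurons build their axons on a lattice of neurofilaments laid along microtubules. Neurofilaments are mixed polymers of the light, medium and heavy chains NEFL, NEFM and NEFH together with alpha-internexin, the product of INA. Microtubules are polymers of alpha and beta tubulin, and MAP1B, MAP2 and DCX bind and stabilise them while stathmins such as STMN2 promote their disassembly. In many cells outside the nervous system such genes are kept silent by REST, a repressor of neuronal genes.

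SPDEF had log2 signals of 5.99 and 6.06 in PC3-SCR and of 6.85 and 6.73 in PC3-PDEF, an increase of 0.77 (limma, adjusted p = 0.000563). CTNNA1 and STAT3 are known from work elsewhere to be lost from the PC3 genome. CTNNA1 had signals of 4.77 and 4.07 in PC3-SCR but of 9.76 and 9.86 in the arrays labelled PC3-PDEF. STAT3 had 4.51 and 4.70 against 9.06 and 9.05. Both arrays labelled PC3-PDEF thus go against the label PC3, and no comparison could be made without them. For every value below, an effect of PDEF and a difference in cell origin cannot be told apart. In these bulk samples, more cells of a type and more RNA per cell cannot be told apart either. Signals were read against the highest olfactory receptor gene of each array, a gauge of background, which lay between 5.65 and 6.01. In the PC3-SCR arrays the gauge was 5.94 and 6.01, so the SPDEF signals there were barely above background.

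The neurofilament chains did not behave alike. NEFM, the medium chain, had log2 signals of 4.80 and 5.24 in PC3-SCR and of 10.69 and 10.89 in PC3-PDEF. The difference of group means was 5.77 on the log2 scale. NEFM was below the background gauge in both PC3-SCR arrays, and against that gauge the PC3-PDEF signal was at least 28.1-fold higher. NEFL, the light chain on which neurofilament assembly depends, had signals of 7.08 and 6.96 in PC3-SCR and of 8.92 and 8.95 in PC3-PDEF. It was above background in all 4 arrays and 3.77-fold higher in PC3-PDEF. NEFH, the heavy chain that is added late in neuronal maturation, had signals of 4.43 and 4.31 against 4.50 and 4.13. The groups overlapped for NEFH, and none of its values was above the gauge. INA, which encodes an internexin made early in neuronal development, had signals of 4.12 and 4.02 in PC3-SCR and of 6.50 and 6.67 in PC3-PDEF. Its measured difference was 2.52 on the log2 scale, and against the gauge it was at least 1.53-fold higher. These differences belong to the contrast that the genes were chosen from, so they are given without a test.

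The tubulin and microtubule genes showed smaller differences. TUBB2B, a beta tubulin abundant in developing neurons, had signals of 7.29 and 7.62 in PC3-SCR and of 8.55 and 8.34 in PC3-PDEF. This difference of 0.99 lies just under 2-fold. MAP1B, a microtubule-associated protein of growing axons, had signals of 8.55 and 8.52 against 8.90 and 8.94. This is a difference of 0.39 (SD 0.021 in PC3-SCR and 0.028 in PC3-PDEF, n = 2), given without a test like the others. MAP2, the marker of dendrites, had signals of 3.78 and 3.78 in PC3-SCR and of 3.61 and 3.27 in PC3-PDEF. STMN2, a stathmin of growth cones, had 3.78 and 3.78 against 3.67 and 3.64. DCX, the doublecortin of migrating neurons, had 3.49 and 3.64 against 3.50 and 3.61. MAP2, STMN2 and DCX were above the gauge in no array, so their small differences have no readable size.

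In counts, 3 of the 9 genes were at least 2-fold higher in PC3-PDEF, against 8.68% of all genes, and 0 were 2-fold lower, against 6.07%. The PC3-PDEF arrays lay above both PC3-SCR arrays for 5 genes, against 35.0% of all genes, and below them for 2, against 39.7%. Since the genes were picked from this contrast, nothing is read from these shares. The median difference was 0.39 over the 9 genes and -0.05 over all genes. In 4 of the 9 genes no array rose above the gauge, as for 39.0% of all genes. The genes thus fall into a group with signal in all arrays (NEFL, TUBB2B and MAP1B), a group with signal in PC3-PDEF alone (NEFM and INA) and a group at background throughout (NEFH, MAP2, STMN2 and DCX).

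**Figure D1:**
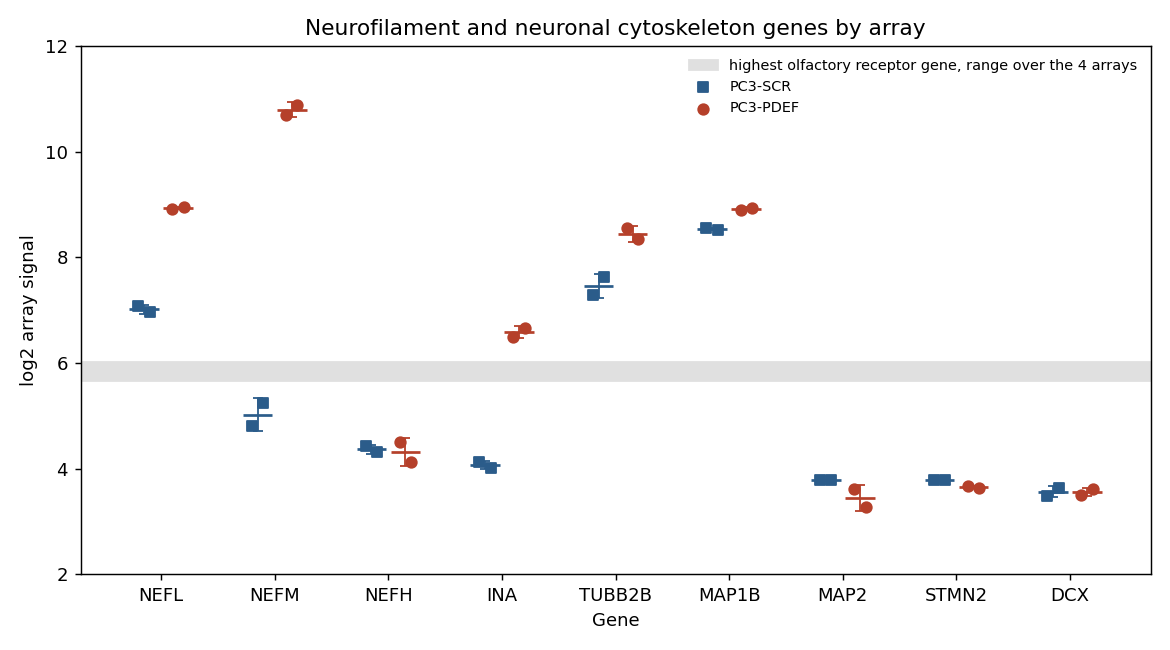
Log2 array signal (vertical axis) of the 9 measured genes (horizontal axis) in PC3-SCR (squares) and PC3-PDEF arrays (circles), with lines at the mean of each group and bars for the SD (n = 2), and a grey band for the highest olfactory receptor gene over the 4 arrays. NEFM moves from 4.80 and 5.24 to 10.69 and 10.89, while NEFH, MAP2, STMN2 and DCX lie below the band in both groups.

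NEFM had its closest match in ZNF512, a zinc finger gene, by the distance between log2 signals centred on each gene's own mean over the 4 arrays. ZNF512 had signals of 3.49 and 3.67 in PC3-SCR and of 9.64 and 9.60 in PC3-PDEF (distance 0.37). The tetraspanin gene TSPAN7 followed with a distance of 0.48 and the insulin receptor substrate gene IRS4 with 0.55. With 4 arrays in 2 groups, such likeness holds for any gene with a step of this size.

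Upstream sequence was at hand for 6 of the 10 genes in the RefSeq table of build GRCh38.p14, in 12 windows of 250 bases. The windows of INA, TUBB2B and MAP1B are shown because these genes had a higher signal in PC3-PDEF and their start is annotated. Each is written 5′ to 3′ on the strand of the gene and ends at the base before the annotated start. Capitals mark the motifs found among the 6 searched on both strands. CCGGAT and CCGGAA are longer sites around the ETS cores GGAT and GGAA, and PDEF prefers CCGGAT. TTCAGCACC and GGACAG are parts of the element bound by REST, and the others were TATAAA and CAGCTG (an E-box). The cores GGAT and GGAA alone were not searched and are not marked where they occur.
INA (chr10:103276888-103277137, plus strand): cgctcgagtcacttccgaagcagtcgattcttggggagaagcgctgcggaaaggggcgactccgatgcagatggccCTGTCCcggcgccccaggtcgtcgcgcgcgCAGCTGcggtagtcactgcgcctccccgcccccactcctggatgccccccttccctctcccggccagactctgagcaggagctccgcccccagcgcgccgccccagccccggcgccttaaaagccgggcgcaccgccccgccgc
TUBB2B (chr6:3227654-3227903, minus strand): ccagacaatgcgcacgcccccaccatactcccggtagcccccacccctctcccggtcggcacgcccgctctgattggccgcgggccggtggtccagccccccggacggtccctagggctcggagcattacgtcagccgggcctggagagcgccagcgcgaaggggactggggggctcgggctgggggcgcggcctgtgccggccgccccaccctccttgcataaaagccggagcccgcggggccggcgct
MAP1B (chr5:72107225-72107474, plus strand): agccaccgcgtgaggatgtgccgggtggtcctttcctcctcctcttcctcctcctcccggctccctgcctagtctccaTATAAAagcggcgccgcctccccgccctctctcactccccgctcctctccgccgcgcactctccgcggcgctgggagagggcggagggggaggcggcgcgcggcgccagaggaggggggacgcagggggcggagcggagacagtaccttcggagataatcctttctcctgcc

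The INA window holds GGACAG on the opposite strand, starting 174 bases before the start of the gene, and CAGCTG 144 bases before it. The MAP1B window holds TATAAA 172 bases before the start, and the TUBB2B window holds none of the motifs. Over the 12 windows, CCGGAT was found in 0, against 5.85% of all 35116 windows in the table, and CCGGAA in 0, against 14.5%. TTCAGCACC was found in 0 (0.288% of all windows), GGACAG in 2 (17.2%), TATAAA in 3 (10.7%) and CAGCTG in 1 (14.0%). Windows of 1 gene overlap or share a locus, and a match describes letters in the sequence, not a bound site.

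The gene lists from here on were chosen with earlier results of these arrays known, so their shares are a description only. Other intermediate filament genes changed in both directions. Of 12 listed and measured, 5 fell, 2 rose and 5 missed the threshold of an adjusted p under 0.05 in limma, where 26.7% of all genes rose, 24.0% fell and 50.7% moved either way. PRPH, which encodes the neuronal filament peripherin, had signals of 5.84 and 5.85 in PC3-SCR and of 5.75 and 5.74 in PC3-PDEF (adjusted p = 0.337). Of these values only PC3-PDEF replicate 1 was above the gauge. NES, the gene of the progenitor filament nestin, fell by 1.09 on the log2 scale, from 6.27 and 6.29 to 5.07 and 5.31 (adjusted p = 0.000251). Both PC3-PDEF values of NES were below the gauge, and against it NES was at least 1.49-fold lower. VIM, which encodes vimentin, fell by 0.70 (adjusted p = 0.000812). The lamin gene LMNA, whose product lines the nucleus, fell by 1.11 from 7.80 and 7.76 to 6.66 and 6.67 (adjusted p = 7.61e-05). Leaving out either PC3-SCR array left 3 genes lower, and leaving out PC3-SCR replicate 2 or either PC3-PDEF array left 1 higher. Among genes above the median level, a setting that drops NES and so tests fewer genes, 3 were higher and 2 lower.

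Tubulin genes were called at shares near those of all genes. Of 20 listed, 19 were measured, and 4 fell (21.1%, against 24.0% of all genes), 5 rose (26.3%, against 26.7%) and 10 missed the threshold. Of the 4 that fell, TUBA3E and TUBB8 were below the gauge in all arrays. TUBA1A, the main alpha tubulin of developing neurons, rose by 1.22, from 8.07 and 8.06 to 9.32 and 9.25 (adjusted p = 5.69e-05). TUBA4A, another alpha tubulin, fell by 1.11, from 7.33 and 7.48 to 6.18 and 6.41 (adjusted p = 0.000299). TUBB2A lies next to TUBB2B and encodes a nearly identical protein, so the probes of the pair may share RNA. It had signals of 7.59 and 7.20 in PC3-SCR and of 7.32 and 7.30 in PC3-PDEF (adjusted p = 0.639). TUBB2A has 3 probe sets, of which 2 carry identical values in every array, and the other differed between groups by -0.02. Leaving out 1 array at a time left 1 tubulin gene lower, or 2 without PC3-SCR replicate 2.

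Genes whose products bind microtubules were more often higher than lower, in a list chosen with earlier results of these arrays known. Of 32 listed, 31 were measured, and 5 fell (16.1%, against 24.0% of all genes), 13 rose (41.9%, against 26.7%) and 13 missed the threshold. Below the gauge in every array were MAP9 and DCLK2 among those that rose and MAP1A among those that fell. MAP7D3, a paralog of the kinesin recruiter MAP7, rose by 3.17 from 5.21 and 5.26 to 8.33 and 8.49 (limma, adjusted p = 3.71e-06). MAP7 itself rose by 2.67 from 5.62 and 5.45 to 8.15 and 8.25 (adjusted p = 6.59e-06). Both were at background in PC3-SCR, which makes MAP7D3 at least 5.41-fold and MAP7 at least 4.68-fold higher. The collapsin response mediators, which steer growing axons, split. DPYSL5 rose by 2.52 from 4.67 and 4.43 to 7.08 and 7.05 (adjusted p = 1.03e-05). DPYSL3 fell by 2.77, from 8.14 and 8.14 to 5.36 and 5.37 (adjusted p = 3.55e-06). With DPYSL5 at background in PC3-SCR and DPYSL3 at background in PC3-PDEF, the bounds are at least 2.13-fold higher for DPYSL5 and at least 5.43-fold lower for DPYSL3. MAPT, the gene of tau, had signals of 5.73 and 5.32 against 5.77 and 5.49 (adjusted p = 0.624). Only its PC3-PDEF replicate 1 value was above the gauge. STMN1, the stathmin of dividing cells and a paralog of STMN2, had 9.78 and 9.79 against 9.66 and 9.72 (adjusted p = 0.371). Leaving out 1 array at a time left 10 genes higher each time and 2 lower, or 3 without PC3-SCR replicate 2.

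**Figure D2:**
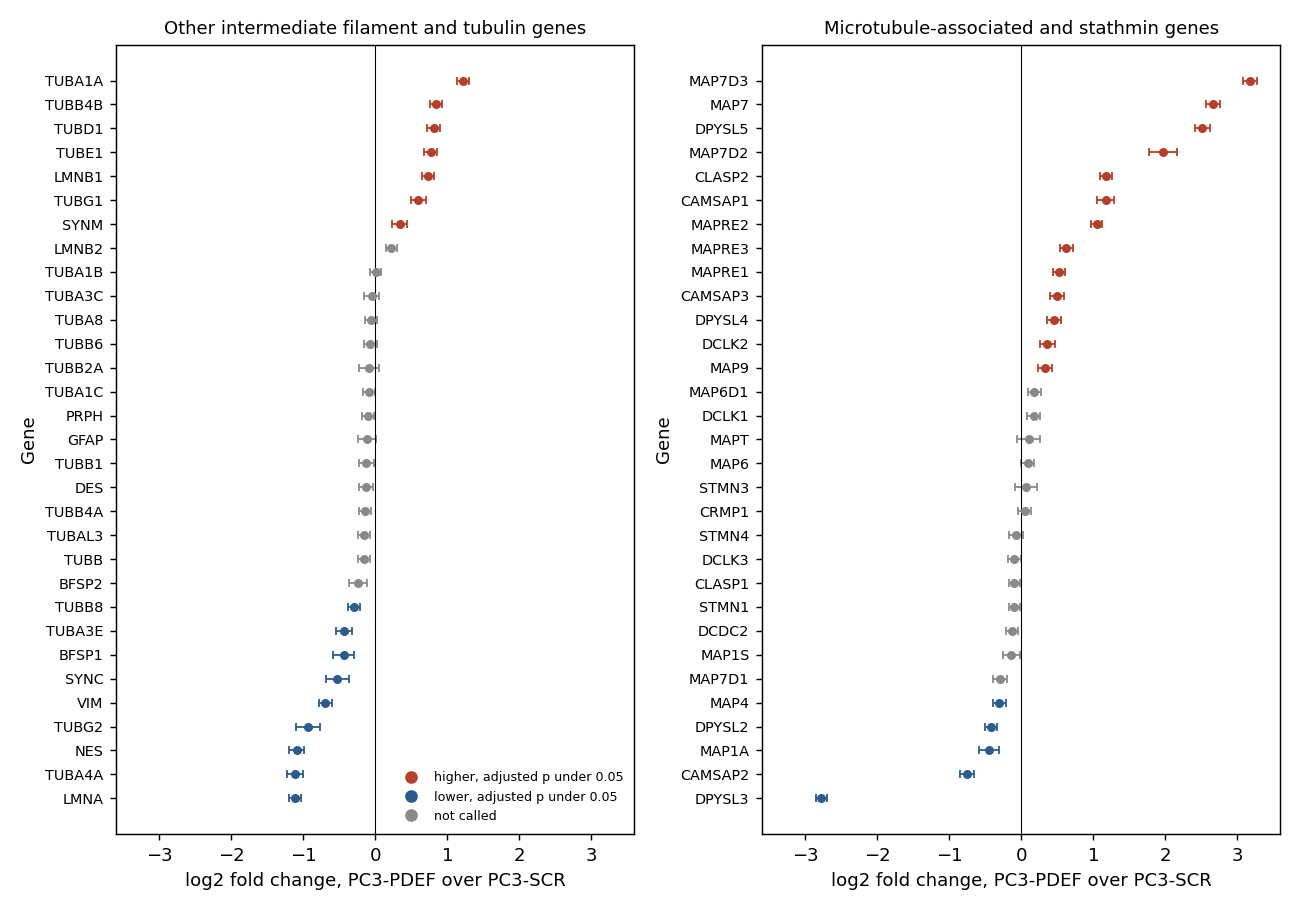
Log2 fold change of PC3-PDEF over PC3-SCR (horizontal axis) with its limma standard error (bars, 2 arrays per group) for each intermediate filament and tubulin gene (left) and each microtubule-associated or stathmin gene (right, names on the vertical axes) outside the chosen set. Red marks genes higher and blue genes lower at an adjusted p under 0.05, with MAP7D3 at 3.17 and DPYSL3 at -2.77 as the outermost points.

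Motors, linkers and turnover factors of neurofilaments changed in both directions. Of 30 listed, 28 were measured, and 9 fell (32.1%, against 24.0% of all genes), 10 rose (35.7%, against 26.7%) and 9 missed the threshold. TRIM2, a ubiquitin ligase that binds the light neurofilament chain, rose by 2.65 from 4.55 and 4.59 to 7.10 and 7.34 (limma, adjusted p = 8.88e-06). KIF5A, a neuronal kinesin that carries neurofilaments, rose by 2.48 from 3.98 and 4.59 to 6.76 and 6.77 (adjusted p = 9.9e-05), and its other probe set differed by 2.11. ANK2, an ankyrin that anchors membrane proteins to the spectrin skeleton, rose by 2.46 (adjusted p = 6.4e-06). PLEC, the gene of plectin, a linker of intermediate filaments, fell by 1.96 from 8.65 and 8.65 to 6.66 and 6.73 (adjusted p = 1.04e-05). In PC3-SCR, TRIM2, KIF5A and ANK2 were at background, so their bounds are 2.37-fold, 1.73-fold and 1.63-fold. Without PC3-PDEF replicate 1, 6 of these genes were higher.

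Tubulin folding and modification genes were mostly higher, in a list chosen with earlier results of these arrays known. Of 25 listed, 24 were measured. Among them 3 fell (12.5%, against 24.0% of all genes), 15 rose (62.5%, against 26.7%) and 6 missed the threshold. The median log2 fold change was 0.47 against -0.05 over all genes. AGTPBP1, which trims glutamate residues from tubulin tails, rose by 2.99 from 6.10 and 6.06 to 9.03 and 9.10 (limma, adjusted p = 3.28e-06). VASH1, which removes the last tyrosine of alpha tubulin, rose by 2.53 from 6.09 and 5.30 to 8.05 and 8.39 (adjusted p = 0.000318), with an adjusted p of 0.0575 without PC3-PDEF replicate 2. The severing enzyme gene KATNA1 rose by 1.48 (adjusted p = 2.63e-05) and TBCE, a cofactor that assembles tubulin dimers, by 1.25 (adjusted p = 5.07e-05). In PC3-SCR, AGTPBP1 and KATNA1 (6.05 and 6.04) were barely above the gauge, and VASH1 was below it in replicate 2. Fewer genes were higher without PC3-PDEF replicate 1 (9) or replicate 2 (8), and leaving out any array left 1 lower.

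REST was expressed in both groups, with signals of 8.49 and 8.56 in PC3-SCR and of 8.80 and 8.86 in PC3-PDEF. It rose by 0.31 (limma, adjusted p = 0.0228), but median centring gave an adjusted p of 0.0529, and the range was 0.0657 to 0.115 when any 1 array was left out. The list of REST with its partners, neuronal splicing regulators and proneural factors held 33 genes, of which 30 were measured. Of these, 1 fell (3.33%, against 24.0% of all genes), 13 rose (43.3%, against 26.7%) and 16 missed the threshold. ELAVL2 was the gene that fell, from 6.83 and 6.66 to 5.67 and 5.62 (limma, adjusted p = 0.000153). In 8 of the 30 genes no array rose above the gauge, among them the proneural genes NEUROG1, NEUROG2 and NEUROG3, and none of the 8 was called. EBF3, a transcription factor of neuronal differentiation, rose by 2.49 from 4.92 and 4.60 to 7.12 and 7.38 (adjusted p = 3.13e-05). POU4F1, a factor of sensory neurons, rose by 2.21 from 5.26 and 5.44 to 7.61 and 7.50 (adjusted p = 1.4e-05). The phosphatase gene CTDSPL, a cofactor of REST, rose by 2.27 (adjusted p = 2.28e-05) and the corepressor gene SIN3A by 1.14 (adjusted p = 7.47e-05). The PC3-SCR signals of EBF3, POU4F1 and CTDSPL were at background, and their bounds are 2.42-fold, 2.99-fold and 2.06-fold. Without PC3-PDEF replicate 1 or replicate 2, 7 genes of the list were higher. The number lower was 4 after median centring and 3 after quantile normalization.

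Neuronal markers outside the cytoskeleton were called at shares near those of all genes, 26.7% higher and 24.0% lower. Of 25 listed, 23 were measured, and 6 fell (26.1%), 5 rose (21.7%) and 12 missed the threshold, while 14 were above the gauge in no array. SCN2A, GAP43 and CNTN2 among those that fell, and SYP among those that rose, were below it in every array. Also at background throughout were the synaptic genes SNAP25 and SYN1 and the transporter genes SLC17A6, SLC17A7 and SLC32A1. UCHL1, a ubiquitin hydrolase abundant in neurons, rose by 4.59 from 5.77 and 5.35 to 10.22 and 10.08 (limma, adjusted p = 4.7e-06), at least 18.1-fold against the gauge. NCAM1, a neural adhesion molecule gene, rose by 3.06 (adjusted p = 9.08e-06) from background in PC3-SCR, at least 3.01-fold against the gauge. ENO2, the neuron-specific enolase gene, fell by 1.38 from 8.80 and 8.67 to 7.31 and 7.40 (adjusted p = 5.4e-05). The summed linear signal of the list was 1395 to 1396 in PC3-SCR and 2289 to 2357 in PC3-PDEF, and without UCHL1 it was 1341 to 1354 and 1165 to 1207. Without PC3-PDEF replicate 1 or replicate 2, 3 genes rose and 3 fell.

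Of 10 glial markers, 9 were measured, and 2 fell (22.2%, against 24.0% of all genes), 2 rose (22.2%, against 26.7%) and 5 missed the threshold. The glutamate transporter gene SLC1A3 rose by 1.12 (limma, adjusted p = 0.000112) from background in PC3-SCR, at least 1.77-fold against the gauge, while the myelin gene MBP fell by 1.10 below the gauge in all arrays (adjusted p = 0.000106). The others called, AQP4 (higher) and FABP7 (lower), were below the gauge in all arrays too. The number lower was 1 with any array left out. The summed linear signal was 347 to 364 in PC3-SCR and 380 to 389 in PC3-PDEF. Of 11 neuroendocrine markers, 9 were measured, and 1 fell (11.1%), 1 rose (11.1%) and 7 missed the threshold. CHGA, CHGB, SCG2 and SCG3, the granin genes, were at background in all arrays. CPE, a carboxypeptidase of peptide hormone processing, rose by 1.82 (adjusted p = 1.55e-05). SCG5, a chaperone of prohormone convertase, fell by 1.18 from 5.96 and 5.59 to 4.79 and 4.39 (adjusted p = 0.00161). Of its values only PC3-SCR replicate 1 was above the gauge, so the size of the fall is not readable. SCG5 did not pass without PC3-SCR replicate 1 (log2 fold change -1) or PC3-PDEF replicate 2 (-0.985). The summed linear signal was 277 to 289 in PC3-SCR and 498 to 510 in PC3-PDEF, and without CPE it was 175 to 188 and 141 to 153.

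**Figure D3:**
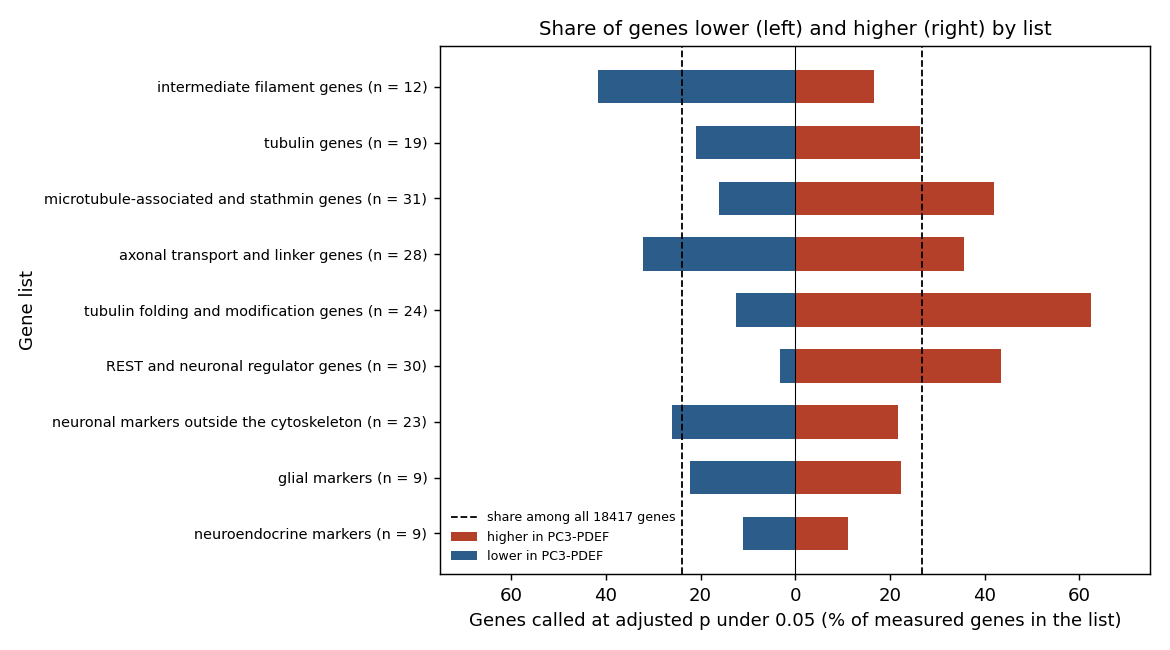
Share of measured genes in each list (vertical axis, with the number measured) that were lower (blue, left) or higher (red, right) in PC3-PDEF at an adjusted p under 0.05, in percent (horizontal axis), with dashed lines at the shares among all genes, 24.0% and 26.7%. The tubulin folding and modification genes reach 62.5% higher, and the neuronal markers reach 21.7% higher and 26.1% lower. The lists were chosen with earlier results of these arrays known.

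Markers of other tissues were set beside the neurofilament genes, and their part in the result was not tested. Of 13 embryonic kidney markers, 11 were measured, and 3 fell (27.3%, against 24.0% of all genes), 4 rose (36.4%, against 26.7%) and 4 missed the threshold. EYA1 and SALL1 were among those that rose and PAX8 among those that fell, while PAX2 and CDH16 were at background in all arrays, as were OSR1 and CDH6 among those that fell. The summed linear signal was 637 to 646 in PC3-SCR and 827 to 864 in PC3-PDEF. Of 13 prostate epithelium markers, 8 were measured, and 1 fell (12.5%), 1 rose (12.5%) and 6 missed the threshold. KLK2, KLK3 and KRT5 were at background in all arrays, as was ACP3, the gene that rose. HOXB13 was above the gauge in all arrays, with 6.63 and 6.65 in PC3-SCR against 6.78 and 6.74 in PC3-PDEF (limma, adjusted p = 0.259). The summed linear signal was 1785 to 1857 in PC3-SCR and 1377 to 1416 in PC3-PDEF, and without the keratin genes KRT8 and KRT18 it was 260.0 to 269 and 270.1 to 280. The 3 measured genes reported lost or not expressed in PC3 were all higher in PC3-PDEF. CAVIN1 had signals of 4.83 and 5.03 in PC3-SCR and of 6.01 and 5.91 in PC3-PDEF (limma, adjusted p = 0.00028), which lie below the gauge and just above it, so no fold is given. Their summed linear signal was 75.5 to 78.5 in PC3-SCR and 1465 to 1519 in PC3-PDEF.

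Genes next to the neurofilament and microtubule genes were read to see whether their surroundings moved with them. NEFM (24913761 to 24919093) and NEFL (24950955 to 24956612) lie side by side on chromosome 8 of GRCh38.p14. Of their 6 nearest measured neighbours, 2 fell, 0 rose and 4 missed the threshold. DOCK5, a guanine nucleotide exchange factor gene, fell by 1.58 in the limma fit (adjusted p = 3.99e-05). STC1, the gene of the hormone stanniocalcin, fell by 2.08 (adjusted p = 2.20e-05). It lies 1059 kb from NEFM, beyond ADAM28 and ADAMDEC1, which missed the threshold. The neighbours of INA on chromosome 10 did otherwise, with 4 of 6 higher. PCGF6, a Polycomb subunit gene, rose by 1.72 (adjusted p = 1.72e-05) and TAF5, a subunit gene of the general transcription factor TFIID, by 1.35 (adjusted p = 4.54e-05). Around MAP1B on chromosome 5, 4 of 6 neighbours rose as well, among them the mitochondrial ribosome gene MRPS27 by 0.79 (adjusted p = 0.000391). Over all 10 genes, 12 of 54 neighbours fell (22.2%, against 24.0% of all genes), 14 rose (25.9%, against 26.7%) and 28 missed the threshold. Nothing particular to a locus is read from the counts of 6 neighbours. Without PC3-PDEF replicate 1 or replicate 2, 8 neighbours were higher, and without PC3-SCR replicate 2, 9 were.

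**Figure D4:**
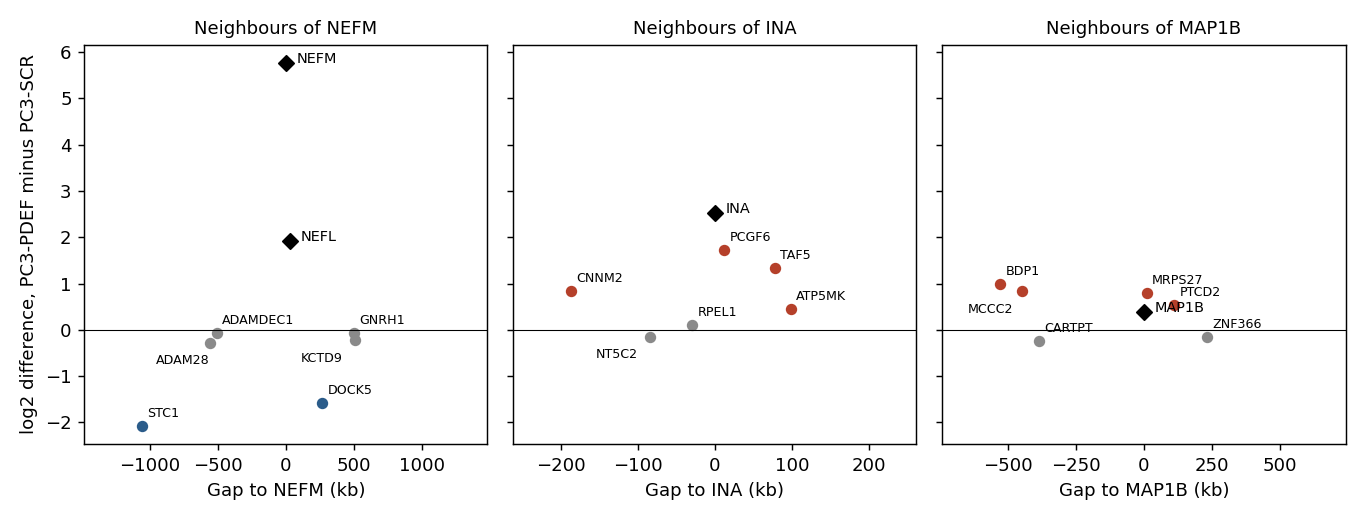
Log2 difference of PC3-PDEF minus PC3-SCR (vertical axis) for NEFM with NEFL, INA and MAP1B (black diamonds) and their 3 nearest measured genes on either side, against the gap to the gene in kb (horizontal axis). Red genes were higher and blue genes lower at an adjusted p under 0.05, and grey genes did not pass. Around NEFM at 5.77, DOCK5 (gap 266 kb) was at -1.58 and STC1 (gap 1059 kb) at -2.08. ADAM28 and ADAMDEC1 lie between STC1 and NEFM and did not pass.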

How the data were processed

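RNA of PC3-SCR and PC3-PDEF cells (2 arrays each) was hybridized to Affymetrix HuGene-1.0-st arrays. The authors deposited log2 signals of 33297 probe sets made with Transcriptome Analysis Console. For its version, background correction and normalization, the sources used here say nothing. The log base was inferred from the range. Array medians were 5.41 to 5.46, and the values were used as deposited. The number of arrays limits the precision.

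Symbols came from the platform annotation and were updated through gene IDs to GRCh38.p14 (99.8% matched). Of the probe sets, 19460 with 1 symbol were used, and 1754 with several and 12083 unlisted were not. The probe set with the highest mean stood for a gene. The background gauge was the highest of 361 olfactory receptor genes.

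Genes were compared with limma 3.58.1 in R 4.3.3 (two-sided, Benjamini-Hochberg over 18417 genes, called at an adjusted p under 0.05), after a test on simulated data. An exact permutation test cannot give a p below 0.333 here. The members and lists were chosen with earlier results of these data known. All members are named, and of each list up to 4 called genes of the largest change, at least 2-fold and above the gauge in 1 group (up to 2 called genes where fewer than 2 qualify), plus closest relatives, REST and the label checks. Neighbours and further list and marker genes were named after their values were seen. Alternatives were quantile normalization, median centring, genes above the median level, averaged probe sets, a replicate block, an intensity trend and leaving out each array.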

Additional observations from a re-analysis of the deposited data

How the results depend on the processing

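Over the fits that kept the gene, the log2 difference was 1.85 to 1.98 for NEFL and 5.55 to 5.99 for NEFM. It was 2.43 to 2.60 for INA, 0.83 to 1.16 for TUBB2B and 0.31 to 0.41 for MAP1B. These genes were chosen from this contrast and their groups do not overlap, so leaving out 1 array could not turn the sign. A replicate block or an intensity trend leaves the difference itself unchanged. Nothing is read from the stable sign. The number of chosen genes at least 2-fold higher was 3 to 4 with 1 array left out. Among genes above the median level, INA was dropped, and the numbers called there were 2 intermediate filament, 2 tubulin, 2 neuronal and 0 glial and 0 neuroendocrine genes lower, 8 microtubule-associated, 6 transport, 8 REST and regulator, 2 neuronal, 3 intermediate filament and 1 glial genes higher, with fewer genes tested. In that setting 3 REST and regulator genes were lower, and the cause was not tested. REST and regulator genes lower were 3 with an intensity trend, 4 after median centring and 3 after quantile normalization, both of which left 1 intermediate filament gene higher, while quantile normalization left 1 glial gene lower. No source used here says that the replicate numbers pair the arrays, and the correlation of the replicate differences between groups was 0.022. With the replicate block 1 intermediate filament gene was higher and 3 lower, 2 tubulin genes were lower and 1 tubulin folding gene was lower. With 1 array left out, the lone array of a group is assumed to vary like the others. Over all genes 3010 to 3635 were then higher and 2326 to 2856 lower. Ranges higher and lower were 1 to 2 and 3 to 4 for intermediate filament, 4 to 5 and 1 to 2 for tubulin, 10 and 2 to 3 for microtubule-associated, 6 to 9 and 6 to 7 for transport, 8 to 11 and 1 for tubulin folding, 7 to 9 and 1 for REST and regulator, 3 to 5 and 3 to 6 for neuronal, 2 to 3 and 1 for glial and 1 and 0 to 1 for neuroendocrine genes, and 8 to 10 and 9 to 11 for neighbours. After median centring 4484 of all genes were higher and 5589 lower, against 4918 and 4419 as deposited.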
